A study of Mus musculus with 9 samples.

Results

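Netrins are secreted guidance proteins, and their receptors sit at the surface of the responding cell. The set described here holds 9 genes, the ligands Ntn1, Ntn3 and Ntn4 and the receptors Dcc, Neo1, Unc5a, Unc5b, Unc5c and Unc5d. Its members are all probe sets that the platform annotation assigns to 1 of these symbols, 19 of the 45037 probe sets on the array that are not controls, for 9 of 18193 genes. The set was assembled around Ntn1, which was chosen by its measured values in these same arrays, for its fall in steps over the 3 genotypes. The Ntn1 contrasts are therefore given as a description with no test. The other 8 genes entered by family, whatever their values.

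RNA came from the cardiac ventricles of male mouse fetuses at E18.5, shortly before birth. The 3 genotypes were ERRg +/+ (wild type, WT), ERRg +/- (heterozygous, HET) and ERRg -/- (knockout, KO), each with 3 arrays labelled as biological replicates. ERRg, encoded by Esrrg, is estrogen-related receptor gamma, an orphan nuclear receptor that drives mitochondrial and metabolic genes in heart muscle. The labels speak of 3 ventricles per source and do not settle whether an array holds 1 fetus or a pool, and they give neither the strain nor the deleted exons. Each p-value below rests on array-to-array spread, part of which may be technical.

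Netrin-1 attracts growing axons and cells through DCC and its relative neogenin (Neo1), and repels them when an UNC5 receptor takes part. DCC and the UNC5 proteins are also dependence receptors, which promote cell death when no netrin is bound. Outside the nervous system, UNC5B is known from endothelial cells, neogenin also binds the repulsive guidance molecules, and netrin-4 is a component of basement membranes.

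Values are the deposited MAS5 signals, on a linear scale that sets each array's trimmed mean to 200. Differences are on the scale of log2(signal + 16), which shrinks differences of weak probe sets. A probe set is called dim below when its mean on this log2 scale lay under the 40th percentile, which corresponds to a signal of 21.7. Probe sets bind with different strength, so no level is compared between probe sets. A gene was represented by its brightest probe set, and 13028 of 18193 genes were bright enough to be tested in limma over all 9 arrays. A gene is called at a Benjamini-Hochberg adjusted p under 0.05 over all genes tested. Of the 9 members, 6 were tested at this level, while Ntn3, Unc5c and Unc5d were dim. Of the 19 probe sets, 12 were above the dim level. Every member probe set was also read in a separate fit over all 45037 probe sets with no filter.

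The brightest of 3 Esrrg probe sets, used for the gene, followed the labels. Its signals were 281, 213 and 206 in the WT arrays, 162, 164 and 162 in the HET arrays and 58.3, 58.1 and 39.3 in the KO arrays. All HET arrays lay under all WT arrays, and all KO arrays under both. The KO minus WT difference was -1.88 ± 0.19 (SE; limma adjusted p = 0.00018). The other 2 did not follow the genotypes: 1421747_at had means of 42.2 in WT, 64.4 in HET and 33.1 in KO, and 1457896_at had 38.4, 23.4 and 32.1, with WT and KO arrays overlapping in both. Of all genes tested, 1.62% were called in KO against WT (211 of 13028), 0.00% in HET against WT (0 of 13028, with 1499 at an unadjusted p under 0.05) and 0.0154% in KO against HET (2 of 13028). Those 2 genes were Esrrg and Ntn1, and since Ntn1 was chosen by these values nothing is read from its call.

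The arrays also fell into 2 groups by the log2 ratio of the spike-in controls thr and dap. The ratio was -1.40 to -1.22 in the WT arrays and HET 1, and -1.67 to -1.54 in HET 2, HET 3 and the KO arrays. With this spike-in group as a block, 1 gene was called in KO against WT in place of 211. In that fit WT and KO meet only through the HET arrays, 1 of which is in the first group. For the member probe sets, and for list genes whose sign turns or whose value moves strongly, the difference with the block stands beside that without it.

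Cell type markers were read as whole lists. Of all 13028 genes tested, 1.62% were called in KO against WT, and 25.0% had KO and WT arrays without overlap. The 10 ventricular cardiomyocyte markers were all bright enough to be tested, with summed signals of 157046 to 165655 in WT, 143902 to 158715 in HET and 142605 to 153950 in KO, every KO array under every WT array. None of them was called, and 3 were higher and 7 lower in KO. Their median difference of -0.07 was 0.02 after quantile normalization and 0.01 with the block. Of 6 neuron and Schwann cell markers on the array, 3 were tested (Dbh, Stmn2 and Sox10), and their summed signal was 225 to 254 in WT, 267 to 279 in HET and 260 to 292 in KO, with no overlap between WT and the others. The 3 did not move together: KO minus WT was 0.63 for Dbh, 0.24 for Sox10 and -0.69 for Stmn2, none of them called. Of the 9 endothelial markers, 3 were higher and 6 lower in KO, the receptor gene Kdr was called lower (-0.74, limma adjusted p = 0.026; -0.25 with the block), and the summed signals overlapped, at 5590 to 6005 in WT and 5250 to 5669 in KO. Of the 8 fibroblast markers, 7 were higher and 1 lower, the matrix proteoglycan gene Lum was called higher (0.33, limma adjusted p = 0.0482; 0.34 with the block), and the sums of 34261 to 39112 in WT and 38776 to 40262 in KO overlapped. Of the 6 epicardial markers, 4 were higher and 2 lower, the transcription factor gene Tbx18 was called higher (0.84, limma adjusted p = 0.032; 0.23 with the block), and the sums of 837 to 1277 in WT and 1063 to 1499 in KO overlapped. The epicardial sums in HET, 1432 to 1598, lay above all WT sums. All 6 of these markers were higher in HET than in WT, none of them called. Their median HET minus WT difference was 0.42, beside -0.01 over all genes tested. Atrial, smooth muscle and pericyte, erythroid and macrophage lists had no gene called, and their sums overlapped between WT and KO. The part of these shifts in the netrin and receptor values was not tested. In RNA from whole ventricle, fewer cells of a type and less RNA per cell cannot be told apart.

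Ntn1 fell in steps with the number of ERRg copies lost, the property it was chosen for. The brighter of its 2 probe sets, 1454974_at, gave signals of 1911, 1742 and 1769 in the WT arrays, 1550, 1464 and 1405 in the HET arrays and 794, 895 and 1004 in the KO arrays. All HET arrays lay below all WT arrays, and all KO arrays below all HET arrays. The lowest WT array stood 192 signal units above the highest HET array, and the lowest HET array stood 401 units above the highest KO array. Such an ordered fall without overlap was seen in 0.453% of genes tested (59 of 13028), and the ordered rise in 0.284% (37 of 13028).

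Mean Ntn1 signal on this probe set was 1807 ± 90.8 in WT, 1473 ± 73.2 in HET and 897 ± 105 in KO (SD, n = 3 each). HET was thus at 81.5% of the WT mean and KO at 49.7%. On the log2 scale the differences were -1.0 ± 0.09 for KO minus WT, -0.29 ± 0.09 for HET minus WT and -0.71 ± 0.09 for KO minus HET (limma SE). The loss in HET came to 36.7% of the loss in KO in signal units and to 29.1% on the log2 scale. For Esrrg itself, the HET loss was 38.9% of the KO loss in signal units and 24.9% on the log2 scale. Among the 13028 genes, Ntn1 ranked 51 by the size of its fall from WT to KO.

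The arrays of this probe set are ordered by genotype without overlap, so its direction within the spike-in groups was given by its choice. Only the sizes are described. HET 1 differed by -0.22 from the WT mean of its own group, and KO differed by -0.67 from the 2 HET arrays of the other group, both on the log2 scale. With the block the KO minus WT difference was -0.89 ± 0.15. The HET arrays of the second group differed from HET 1 by -0.11. Over 20 alternative settings the KO minus WT value ran from -1.08 to -0.78, the HET minus WT value from -0.34 to -0.17 and the KO minus HET value from -0.79 to -0.61, all below 0. Ntn1 was chosen for this direction, so these signs are a description.

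The dimmer Ntn1 probe set, 1422987_at, shared the low KO values but not the step between WT and HET. Its signals were 170, 158 and 290 in the WT arrays, 162, 206 and 214 in the HET arrays and 117, 140 and 136 in the KO arrays. Every KO array lay under every WT and HET array, while the HET arrays lay inside the WT range, which WT 3 alone stretched upward. The means were 206 ± 72.6, 194 ± 28.2 and 131 ± 12.5, so HET stood at 94.2% and KO at 63.6% of WT. The differences were -0.55 ± 0.21 for KO minus WT, -0.04 ± 0.21 for HET minus WT and -0.51 ± 0.21 for KO minus HET, and -0.90 ± 0.36 for KO minus WT with the block. Over the 9 arrays the log2 values of the 2 Ntn1 probe sets had a Pearson r of 0.68, a description only, since both were read from the same arrays. Averaging both probe sets gave a KO minus WT difference of -0.78.

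**Figure D1:**
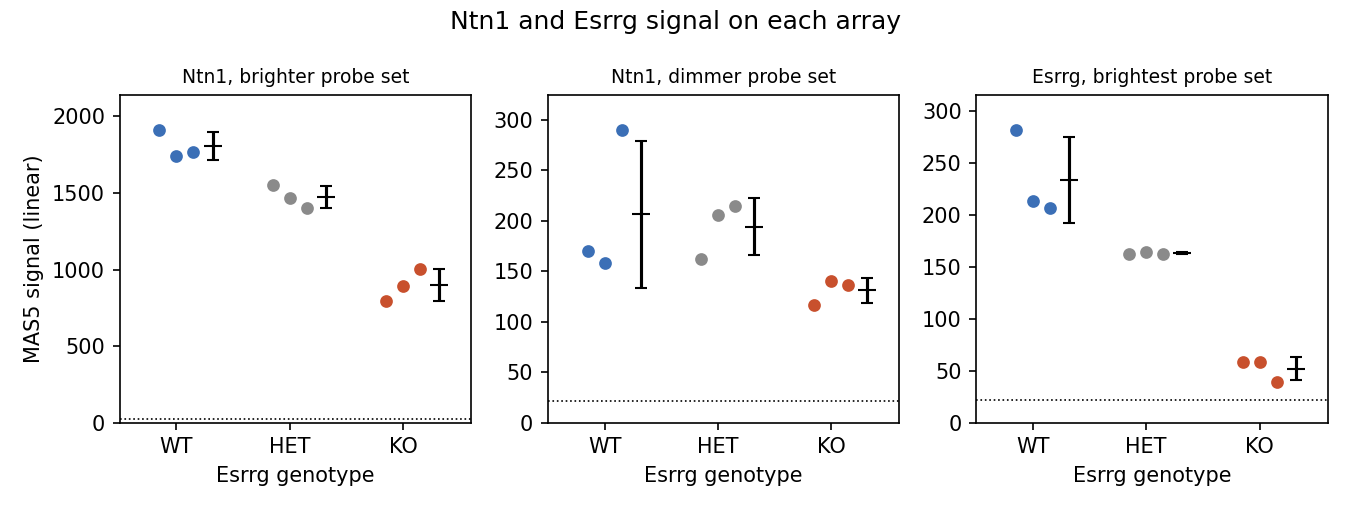
MAS5 signal (linear axis from 0) of both Ntn1 probe sets and of the Esrrg probe set in the 3 WT, 3 HET and 3 KO arrays; each point is an array, the bar and whiskers are the mean ± SD, and the dotted line is the dim level of 21.7. The brighter Ntn1 probe set steps down from 1742 to 1911 in WT to 794 to 1004 in KO, and the dimmer one separates KO from the other genotypes but not HET from WT.

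No other member was called in any comparison. In KO against WT, 0 of the 5 other members tested passed, with 1 of 5 at an unadjusted p under 0.05, against 17.2% of all genes at that unadjusted level. HET against WT also gave 0 of 5 (1 of 5 unadjusted, against 11.5% of all genes), and KO against HET gave 0 of 5 (0 unadjusted, against 4.81%). The lowest limma adjusted p among them was 0.178, 0.421 and 0.989 in these comparisons. In the fit over all probe sets, which called 0.298% of them in KO against WT (134 of 45037), 0 of the 17 other member probe sets passed, and 2 of 17 had an unadjusted p under 0.05, against 11.6% of all probe sets. KO and WT arrays did not overlap for 4 of these 17 probe sets. The share among all probe sets was 18.1% (8147 of 45037), and among the genes tested 25.0% (3251 of 13028).

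Among the other ligands, Ntn4 was clearly measured and had overlapping levels in the 3 genotypes. Netrin-4 is a distant family member that binds laminins in basement membranes. Its brighter probe set read 285, 194 and 245 in the WT arrays, 228, 281 and 186 in the HET arrays and 324, 230 and 234 in the KO arrays. The spread inside each genotype exceeded the distance between the means of 241 ± 45.5, 231 ± 47.4 and 263 ± 53.0. The KO minus WT difference was 0.12 ± 0.18 (limma adjusted p = 0.802), with a 95% interval from -0.27 to 0.50, and its sign changed in 3 of 20 alternative settings. The second Ntn4 probe set read 173, 117 and 178 in the WT arrays, 191, 126 and 97.7 in the HET arrays and 99.1, 108 and 172 in the KO arrays. Its KO values reached from below the WT range to near its top, and its difference of -0.29 ± 0.25 (limma adjusted p over probe sets = 0.737) pointed the other way. With the block the 2 probe sets gave 0.11 ± 0.33 and 0.42 ± 0.40.

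Ntn3, a close relative of Ntn1 that was first described in peripheral ganglia, was dim on average, with the WT mean above the dim level and the HET and KO means under it. Its 1 probe set read 10.5, 28.7 and 43.9 in the WT arrays, 14.6, 12.4 and 1.78 in the HET arrays and 15.6, 4.78 and 27.8 in the KO arrays. The arrays of the 3 genotypes overlapped, and the KO minus WT difference was -0.43 ± 0.41 (limma adjusted p over probe sets = 0.762), and 0.01 ± 0.75 with the block. A 95% interval from -1.30 to 0.43 leaves room for a change as large as that of Ntn1.

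Of the attractive receptors, Dcc was near the dim level. DCC is the main receptor for netrin-1 on growing axons. Its brightest probe set read 23.7, 87.8 and 57.5 in the WT arrays, 39.2, 13.3 and 28.5 in the HET arrays and 30.7, 36.5 and 10.6 in the KO arrays. WT 2 and WT 3 were above all other arrays, but WT 1 lay among the HET and KO values. The means were 56.3 ± 32.1, 27.0 ± 13 and 25.9 ± 13.6. The KO minus WT difference was -0.74 ± 0.42 (limma adjusted p = 0.397; 95% interval -1.64 to 0.16), and -0.13 ± 0.78 with the block. The other 2 Dcc probe sets were dim in every genotype. They differed by -0.24 and 0.26 between KO and WT, and by 0.09 and 0.34 with the block.

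Neo1, which encodes neogenin, came closest to the threshold of the members other than Ntn1, without passing it. Its brightest probe set, 1434931_at, read 315, 219 and 308 in the WT arrays, 257, 171 and 213 in the HET arrays and 198, 198 and 202 in the KO arrays. The KO arrays lay close together and under all WT arrays, while the HET arrays spanned from below the KO arrays into the WT range. The means were 281 ± 53.4, 214 ± 43.2 and 199 ± 2.3. KO minus WT was -0.45 ± 0.17 (limma adjusted p = 0.178) and HET minus WT -0.37 ± 0.17 (limma adjusted p = 0.421). With the block KO minus WT was -0.04 ± 0.28. Among the HET arrays, the 2 of the second spike-in group differed from HET 1 by -0.40 on the log2 scale.

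The other 4 Neo1 probe sets did not share 1 direction without the block, whereas with it all 5 Neo1 values were below 0. 1447693_s_at read 241, 182 and 146 in the WT arrays, 142, 175 and 228 in the HET arrays and 213, 236 and 179 in the KO arrays, with overlap throughout and a KO minus WT difference of 0.15 ± 0.20 (limma adjusted p over probe sets = 0.855), which was -0.30 ± 0.33 with the block. 1447694_x_at was weaker, at 33.6, 36.3 and 85.6 in the WT arrays, 9.53, 25.0 and 45.4 in the HET arrays and 13.1, 16.3 and 14.6 in the KO arrays. Its KO arrays lay under all WT arrays, with a difference of -1.07 ± 0.42 (limma adjusted p over probe sets = 0.309) that was -2.04 ± 0.72 with the block. The suffixes _s_at and _x_at mark probe sets whose probes can match more than 1 transcript, so these values are less certain to be from Neo1. The 2 remaining probe sets, 1444295_at and the dim 1440789_at, differed by -0.34 ± 0.43 and -0.65 ± 0.38, with overlapping arrays, and by -0.48 ± 0.80 and -0.85 ± 0.69 with the block.

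Among the UNC5 receptors, Unc5b was the one measured well above the dim level, and it did not change past the threshold. UNC5B is the family member known from vascular endothelium, where it takes part in vessel branching. Its brighter probe set read 194, 170 and 201 in the WT arrays, 179, 236 and 228 in the HET arrays and 251, 225 and 205 in the KO arrays. Each KO array stood above each WT array, the closest pair being 205 and 201, and HET overlapped both. The means were 188 ± 16.4, 214 ± 30.8 and 227 ± 23.1. KO minus WT was 0.25 ± 0.15 (limma adjusted p = 0.427; 95% interval -0.07 to 0.57), and -0.10 ± 0.26 with the block. The second Unc5b probe set read 134, 240 and 137 in the WT arrays, 162, 265 and 201 in the HET arrays and 195, 197 and 205 in the KO arrays, and its difference was likewise 0.25 ± 0.21 (limma adjusted p over probe sets = 0.721) and -0.22 ± 0.35 with the block. In both probe sets the HET arrays of the second spike-in group were higher than HET 1, by 0.35 and 0.47.

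Unc5a, best known from neurons, had a weak signal in which single arrays set the means. It read 31.2, 5.07 and 48.6 in the WT arrays, 3.27, 32.8 and 25.7 in the HET arrays and 29.7, 30.9 and 31.7 in the KO arrays. The KO arrays lay inside the WT range. The KO minus WT difference of 0.22 ± 0.48 (limma adjusted p = 0.862) became -1.0 ± 0.77 with the block, and the sign also turned without WT 2.

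Unc5c, an axon repulsion receptor, was dim on average, with HET arrays above the others on 1 probe set. 1449522_at read 11.3, 7.43 and 10.4 in the WT arrays, 48.3, 34.9 and 48.0 in the HET arrays and 7.81, 10.3 and 22.7 in the KO arrays. All HET arrays were above all WT and KO arrays. HET minus WT was 1.21 ± 0.36 (limma adjusted p over probe sets = 0.408) and KO minus HET -1.04 ± 0.36, and neither passed the threshold. Within the spike-in groups HET 1 differed from WT by 1.33 and KO differed from the other HET arrays by -0.98. The second probe set, 1419592_at, read 14.7, 4.44 and 8.46 in the WT arrays, 4.07, 60.3 and 16.9 in the HET arrays and 24.1, 20.0 and 34.0 in the KO arrays, so that HET overlapped both other genotypes there. Between KO and WT the first probe set differed by 0.17 ± 0.36 (0.35 ± 0.66 with the block). On the second the KO minus WT difference was 0.74 ± 0.44 (limma adjusted p over probe sets = 0.570), with KO arrays above WT arrays, and -0.57 ± 0.71 with the block. How many of all probe sets had HET arrays above both other genotypes was not counted. Of the 17 other member probe sets, 2 had an unadjusted limma p under 0.05 in HET against WT, against 8.67% of all probe sets. In KO against HET it was 1 of 17, against 4.44%.

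Unc5d had means under the dim level in every genotype. Its 1 probe set read 2.88, 20.5 and 26.5 in the WT arrays, 2.61, 5.31 and 1.5 in the HET arrays and 6.89, 11.9 and 13.6 in the KO arrays. The KO arrays lay inside the WT range and above all HET arrays. KO minus WT was -0.21 ± 0.33 (limma adjusted p over probe sets = 0.882) and -0.26 ± 0.61 with the block, and KO minus HET was 0.48 ± 0.33 (limma adjusted p over probe sets = 0.999).

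**Figure D2:**
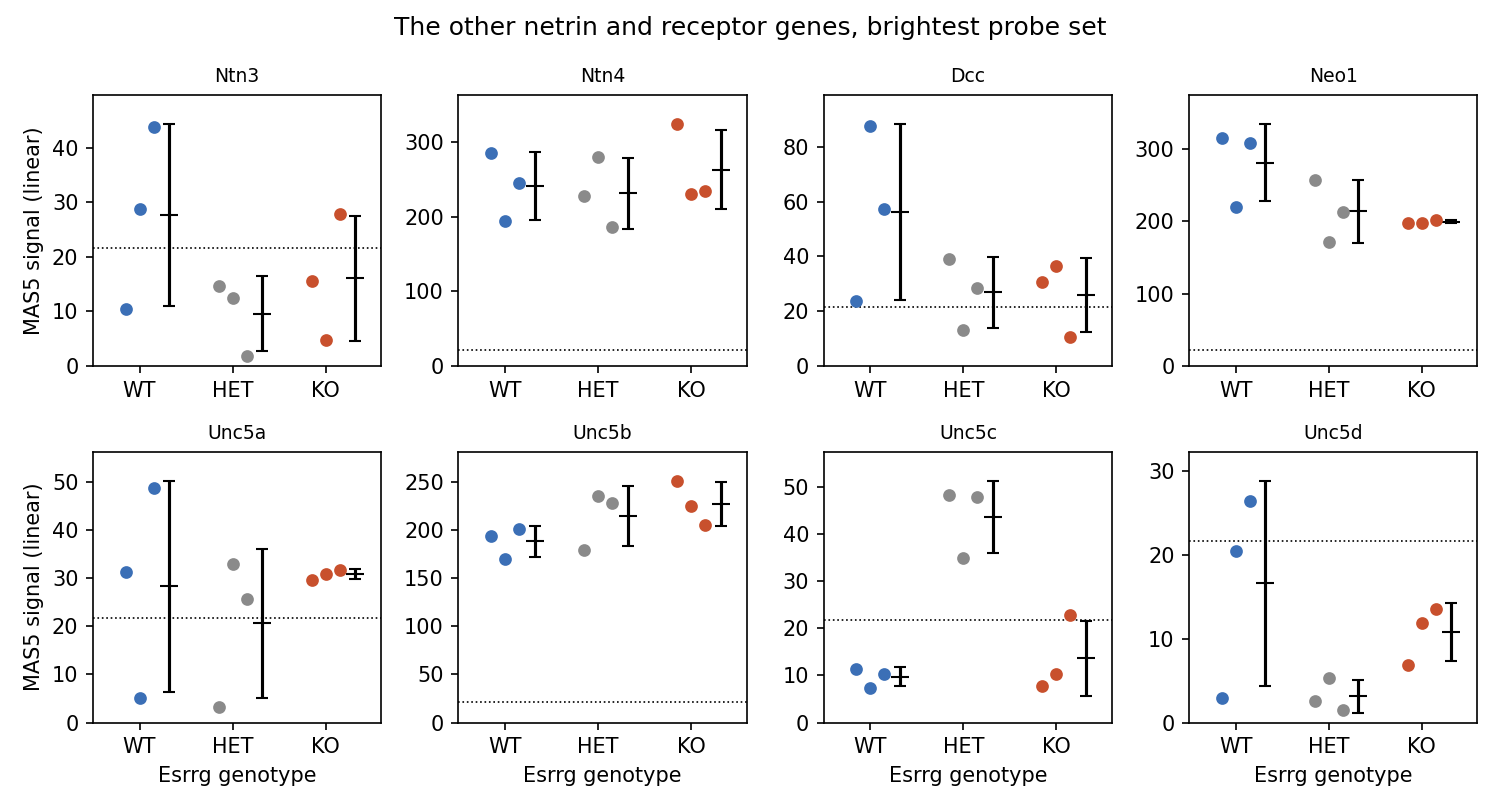
MAS5 signal (linear axes from 0) of the brightest probe set of each of the other 8 members in the 3 WT, 3 HET and 3 KO arrays; points are arrays, bars and whiskers are the mean ± SD, and the dotted line is the dim level of 21.7. Neo1 and Unc5b show KO arrays apart from the WT arrays in opposite directions, the Unc5c HET arrays of 34.9 to 48.3 stand above the rest, and the Unc5d KO arrays of 6.89 to 13.6 lie above its HET arrays. Ntn3, Ntn4, Dcc and Unc5a overlap in all 3 genotypes.

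**Figure D3:**
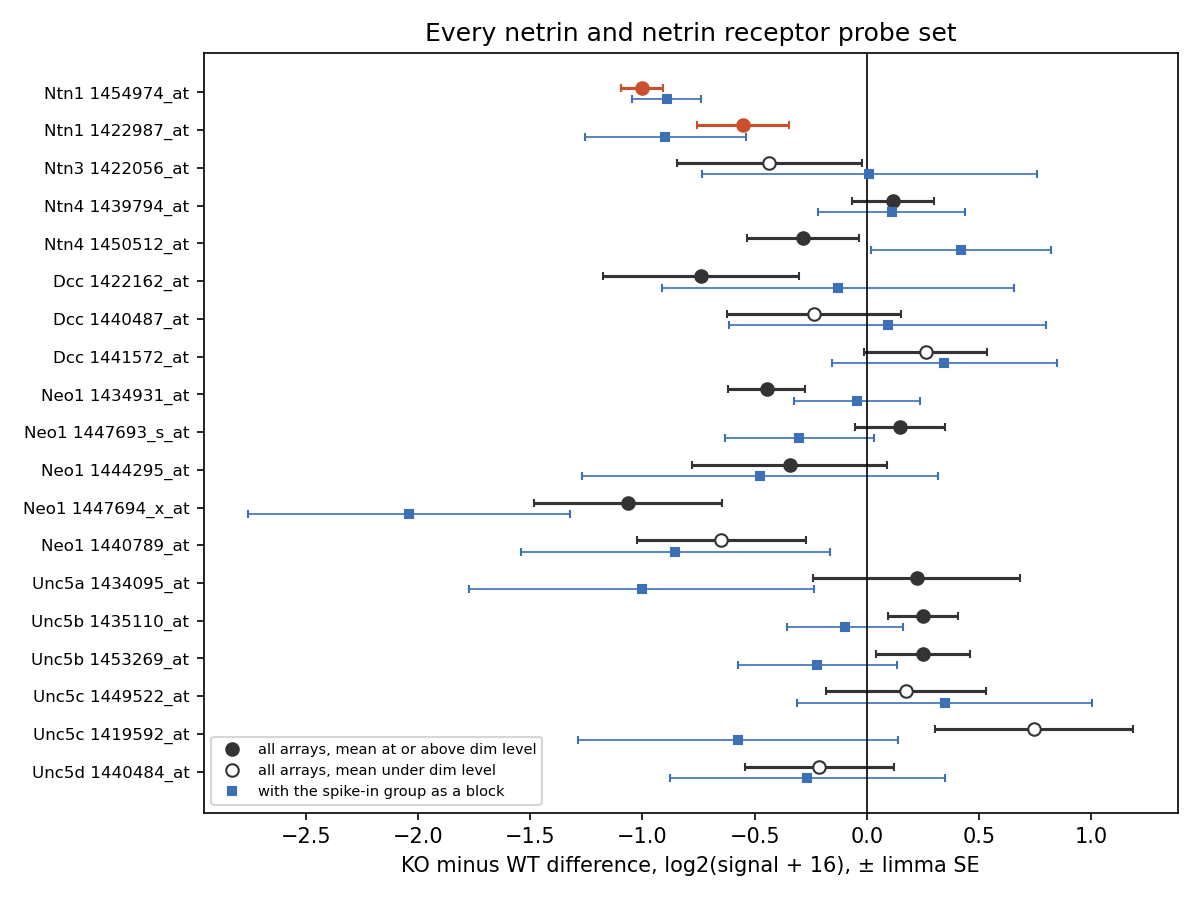
Difference KO minus WT on the log2(signal + 16) scale for all 19 probe sets, with the limma standard error as whiskers; circles use all arrays (filled above the dim level, open when dim), squares have the spike-in group as a block, and Ntn1 is in orange. The 2 Ntn1 probe sets lie below 0 in both fits, while Neo1 1434931_at moves from -0.45 to -0.04 and Unc5b 1435110_at from 0.25 to -0.10.

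Genes that act with netrins or in related guidance systems were read from lists, given here for KO against WT beside a median of -0.01 over all genes tested. Of all genes tested 1.62% were called (211 of 13028), 96 higher and 115 lower. A list of the netrin-G genes, genes of the LRRC4 family and the secreted netrin Ntn5 had 2 of 6 genes tested and none called. Netrin-Gs are membrane-anchored relatives that do not bind DCC or UNC5. The tested genes were Ntng1 (-0.41 ± 0.46, limma adjusted p = 0.702; -0.09 with the block) and Lrrc4b (0.02 ± 0.18, limma adjusted p = 0.972; 0.40 with the block and -0.02 after quantile normalization). Of the other receptors proposed for netrins, 4 were tested and none was called, with a median of 0.11 that was -0.04 with the block. The lowest p-values among them belonged to the adhesion molecule Mcam (0.12 ± 0.11, limma adjusted p = 0.618) and the integrin chain Itga3 (0.17 ± 0.16, limma adjusted p = 0.647). Itga3 read 193, 191 and 207 in the HET arrays, above every WT and KO array. Its HET minus WT difference was 0.66 ± 0.16 (limma adjusted p = 0.293) and KO minus HET was -0.49 ± 0.16 (limma adjusted p = 0.989), neither of them called.

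Other ligands and partners of the netrin receptors gave 0 called of 9 tested, 8 of them higher and 1 lower, with a median of 0.14. Flrt2, a membrane protein that binds UNC5 receptors, read 297, 288 and 234 in the WT arrays, 309, 332 and 317 in the HET arrays and 357, 406 and 354 in the KO arrays. Each KO array was above each WT and HET array, and the difference of 0.43 ± 0.13 did not pass (limma adjusted p = 0.0954; 0.37 with the block). Rgma, a neogenin ligand, read 41.0, 52.9 and 72.5 in the WT arrays, 104, 90.9 and 116 in the HET arrays and 116, 106 and 78.3 in the KO arrays. Both HET and KO arrays lay above all WT arrays, with a KO minus WT difference of 0.71 ± 0.23 (limma adjusted p = 0.124; 0.73 with the block).

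Of 28 genes that carry the netrin signal inside the cell, 26 were tested, 1 rose and none fell, beside 1.62% called among all genes tested. By sign 9 were higher and 17 lower, with a median of -0.06. The gene that rose was Dapk1, a death-associated kinase that binds the cytoplasmic part of UNC5B and acts in its death signal. It read 197, 130 and 127 in the WT arrays, 219, 224 and 158 in the HET arrays and 289, 248 and 373 in the KO arrays. All KO arrays exceeded all others, from a mean of 152 ± 39.4 in WT to 303 ± 64 in KO, a difference of 0.94 ± 0.20 (limma adjusted p = 0.0334; 1.14 with the block). It was called in 10 of 19 alternative settings, with adjusted p-values from 0.00996 to 0.63, and its second probe set differed by 0.41 (limma adjusted p over probe sets = 0.544).

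The related guidance families gave few calls, as did all genes tested (1.62%). Slit and Robo genes had 0 called of 5 tested, led by the Robo family genes Robo1 (0.36 ± 0.27, limma adjusted p = 0.557; -0.05 with the block) and Robo3 (0.29 ± 0.30, limma adjusted p = 0.679; -0.01 with the block). Semaphorins, plexins and neuropilins had 0 called of 28 tested, 15 higher and 13 lower, with a median of 0.04 that was -0.03 after quantile normalization. The lowest p-values there were those of the semaphorins Sema4d (0.35 ± 0.16, limma adjusted p = 0.270; 0.38 with the block) and Sema3c (0.35 ± 0.16, limma adjusted p = 0.278; 0.12 with the block).

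Ephrins and Eph receptors had 1 gene that fell and none that rose among 15 tested, with a median of -0.02 that was 0.02 after a shift to one median. Efnb2, the ephrin of arterial endothelium, read 362, 437 and 424 in the WT arrays, 299, 332 and 357 in the HET arrays and 259, 266 and 258 in the KO arrays. The genotypes were ordered without overlap, and KO minus WT was -0.61 ± 0.12 (limma adjusted p = 0.0317; -0.81 with the block). Its 3 other probe sets differed by -0.49, 0.18 and 0.12, none of them called, and the mean over all 4 probe sets gave -0.20. With the block these 3 probe sets differed by 0.01, 0.57 and 0.27, so none of them fell there. Efnb2 was called in 11 of 19 alternative settings, with adjusted p-values from 0.00599 to 0.598.

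Laminin chains, whose N-terminal domains netrins resemble, had 1 gene that rose among 7 tested, with 5 higher and 2 lower and a median of 0.07. Lamb1 read 2048, 1657 and 1417 in the WT arrays, 1589, 2381 and 2123 in the HET arrays and 2342, 2579 and 2639 in the KO arrays. The KO arrays were above all WT arrays while HET was spread over both, and the difference was 0.57 ± 0.14 (limma adjusted p = 0.0483). With the block it was 0.08, and HET 1 was the lowest HET array. Its other 3 probe sets differed by -0.31, 0.20 and -0.63, and by 0.05, -0.08 and -0.36 with the block. On the first of these 3, with means of 667 in WT and 536 in KO, all KO arrays lay under all WT arrays, the opposite direction. Lamb1 was called in 7 of 19 alternative settings, with adjusted p-values from 0.00497 to 0.971. None of the 3 list genes called in KO against WT was called once WT 2, WT 3 or any KO array was left out, and none of the list genes was called in HET against WT or KO against HET.

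**Figure D4:**
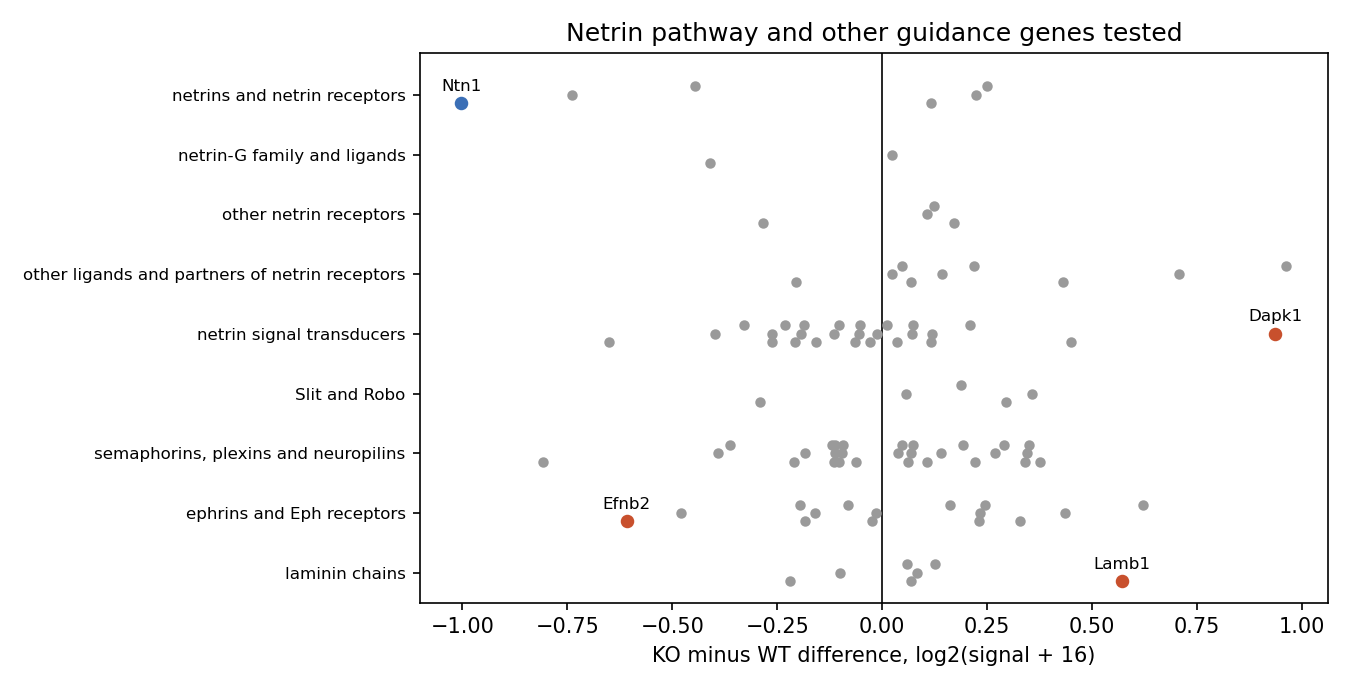
KO minus WT difference on the log2(signal + 16) scale for each gene tested, by list; each point is a gene, red marks a gene called in limma and blue marks Ntn1. The medians of the lists below the netrin set lie between -0.19 and 0.19, and 3 of their genes are called, Dapk1 and Lamb1 higher and Efnb2 lower. Among all genes tested 1.62% are called.

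The genes whose values were most like those of Ntn1 over the 9 arrays were found by Pearson's r of the log2 values. The ranking is a description, since Ntn1 was chosen by the values used here and all genes were read from the same arrays. The 8 highest of 13027 genes were Pdhx (r = 0.970), D10Wsu102e (0.964), Gtsf1 (0.960), Pisd (0.954), Gpx3 (0.947), Eci1 (0.946), Esrrg (0.945) and Clip4 (0.941). Pdhx is a component of the pyruvate dehydrogenase complex, Pisd makes phosphatidylethanolamine in mitochondria, Gpx3 is a secreted glutathione peroxidase and Eci1 is an isomerase of fatty acid oxidation. Their depth of fall differed: Gtsf1 went from a mean signal of 274 in WT to 167 in HET and 62.3 in KO, whereas Pdhx went from 1271 to 1199 and 1035. Ntn1, with KO at 49.7% of WT, lay between these. The 3 genes with the lowest r were Thbs4 (-0.954), which encodes an extracellular matrix thrombospondin and went from 332 to 442 and 744, C130075A20Rik (-0.951) and Enpep (-0.948), the gene of an aminopeptidase that acts on angiotensin.

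The places of the other netrin genes in this ranking are likewise a description, since it rests on the values by which Ntn1 was chosen. Neo1 had r = 0.64 with Ntn1, at rank 1207 of 13027, and Dcc had 0.35. Unc5a and Ntn4 were at -0.24 and -0.28, and Unc5b was at -0.66, at rank 12246. Of the 19 member probe sets, 1 showed the ordered, non-overlapping fall from WT over HET to KO, the brighter one of Ntn1. Ntn1 was chosen for this fall, which 0.453% of genes tested showed (59 of 13028).

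**Figure D5:**
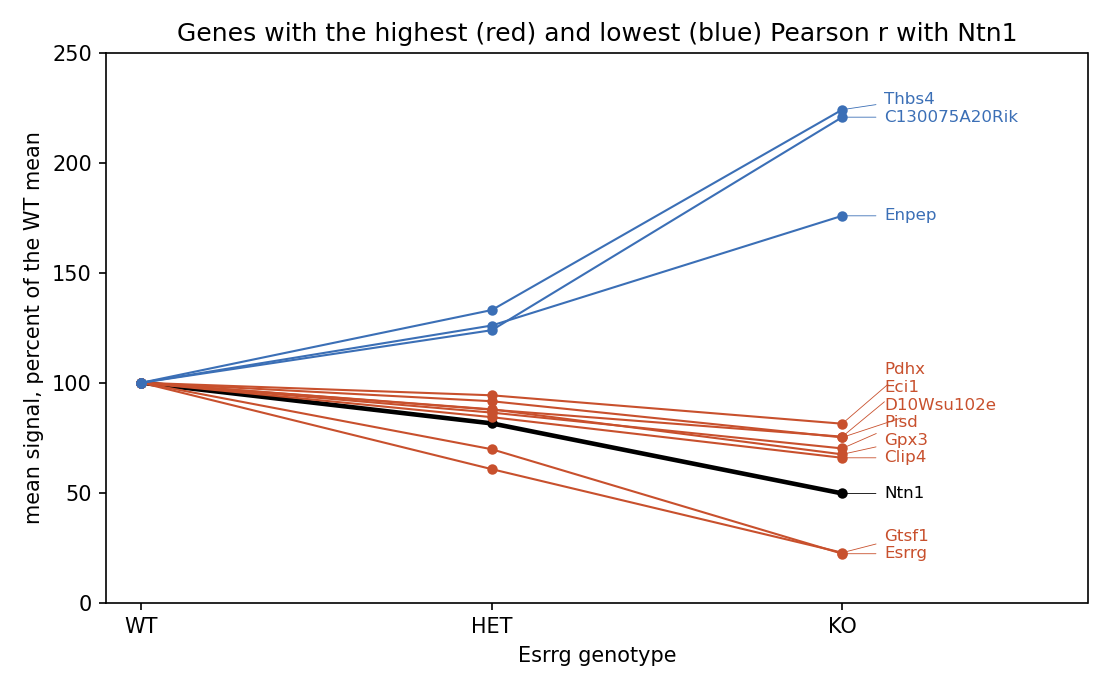
Mean signal of each genotype as a percent of the WT mean for Ntn1, the 8 genes with the highest Pearson r with it (red) and the 3 with the lowest (blue), over the 9 arrays. All of the red genes step down from WT to KO and all of the blue genes step up, which their choice by r made likely in advance. Ntn1 reaches 81.5% in HET and 49.7% in KO.

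Promoter windows were searched for the response element that estrogen-related receptors bind. The windows are RefSeq sequences of build GRCm38.p6, from 250 bases before to 50 after each annotated start, and both strands were read. Windows were held for 6 of the 9 members, those of Ntn3, Ntn4, Neo1, Unc5a, Unc5b and Unc5c. Ntn1, Dcc and Unc5d had no window, so the Ntn1 promoter was not searched. None of the 6 held the core AAGGTCA or the extended form TNAAGGTCA, which contains the core. Among all 32851 windows 4.72% held the core and 1.28% the extended form. The 8 genes most like Ntn1 all had windows, and none of these held either form. The missing match says only that these letters are not in this window.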

How the data were processed

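Total RNA was labelled with biotin and hybridised to 9 Affymetrix arrays, 3 per genotype. The deposited intensity values are MAS5 signal on a linear scale, made by the authors with MAS5 per the submitters' processing notes; version and settings are not given in the sources used here. In the deposited table the signal of each array has a mean of 200 after 2% of values are trimmed at each end. Array medians were 36.5 to 45.8. Precision is limited by having 3 arrays a genotype.

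Of 45101 probe sets, 64 controls were left out. The platform annotation gave 34945 probe sets 1 gene, 932 several and 9160 none, and 34741 symbols were matched to RefSeq by gene ID. Genes (brightest probe set, above the 40th percentile, 5165 left out as dim) were fitted in limma 3.58.1 (R 4.3.3) on log2(signal + 16) with 1 mean per genotype over all 9 arrays and an intensity trend, and p-values were adjusted by Benjamini-Hochberg. The procedure was tested on simulated data. Standard errors and 95% intervals are limma's.

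The members, lists and alternatives, the spike-in groups included, were chosen with earlier results of these data known. The text names all members, Esrrg, the called genes of each pathway list or otherwise the 2 with the smallest p, and the genes most and least like Ntn1. The marker genes Kdr, Lum, Tbx18, Dbh, Stmn2 and Sox10 and the further Esrrg probe sets were named after their values were seen. Alternatives changed the scaling, pseudocount, filter, use of probe sets, arrays fitted and block. Same-numbered replicates did not vary together: 0 of 9 pairs of arrays had a correlation of deviations over 0.1 (-0.0428 to 0.0456), so the numbers were not used as pairs.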

Additional observations from a re-analysis of the deposited data

How the results depend on the processing

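Ntn1, chosen for its ordered fall, was below 0 in all 3 contrasts under all 20 alternatives run, which that choice made likely in advance. Its smallest KO minus WT value, -0.777, was for the mean of its probe sets. No other member was called in KO against WT under any of the alternatives. Counts over all genes moved with the setting. Genes called in KO against WT (211) were 24 with a shift to one median over all probe sets, 85 without the filter, 7 for the mean of probe sets, 134 for single probe sets, 773 for the 6 arrays alone, 127 with the replicate block and 1 with the spike-in group as a block. Leaving out 1 array gave 10 to 845: 845 without HET 1, 56 without WT 1, 12 without WT 2, 10 without WT 3, and 17, 13 and 19 without KO 1, 2 and 3. HET against WT (0) gave 1 with the replicate block, 2 with the spike-in block, and 0 to 578 without 1 array, the 578 being without HET 1. KO against HET (2) gave 0 with the median shift, 0 for the mean of probe sets, 0 for the 6 arrays alone, and 0 to 3 without 1 array (0 without HET 2, HET 3, KO 1 or KO 2).

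Genes of the pathway lists called higher in KO (2) were 0 with the median shift, without the filter, for the mean of probe sets, for single probe sets and with the spike-in block, 1 with a pseudocount of 1 and 1 with the replicate block, and 0 to 3 without 1 array. Those called lower (1) were 2 after quantile normalization, 2 with a shift over the genes tested (chosen after seeing the data), 0 with the median shift, for the mean of probe sets and with the spike-in block, 5 for the 6 arrays alone, and 0 to 5 without 1 array, the 5 being without HET 1. The higher share of the 211 calls was 45.5% (96 against 115), 34.7% with the shift over the genes tested (82 against 154), 51.8% after quantile normalization (88 against 82), 28.6% for the mean of probe sets, 25% and 30% without WT 2 and WT 3, and 23.5%, 23.1% and 26.3% without KO 1, 2 and 3; the 1 call with the spike-in block was lower. The cause of these moves was not tested. With 3 arrays a genotype and signals near the dim level, changes in Ntn3, Dcc, Unc5a, Unc5c and Unc5d as large as that of Ntn1 could go uncalled.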
